A study of Mus musculus with 24 samples.

Results

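The 9 basement membrane genes described here encode the network collagen chains Col4a1 and Col4a2, collagen XVIII (Col18a1), the nidogens Nid1 and Nid2, the laminin chains Lama3, Lama5 and Lamb3, and perlecan (Hspg2). They were taken as a list of symbols, which was drawn up with earlier results of these data known, and each symbol was matched to 1 Ensembl identifier among the 45706 identifiers counted in small intestinal (SI) and colonic (COL) mouse organoids. The list was chosen by gene name and also by measured values, the on versus off changes in these libraries, so those changes of the 9 genes are a description and carry no p-value.

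RNA sequencing covered 24 libraries, 12 per tissue, from C57BL/6N organoids with the CreERT2 recombinase under the Villin promoter, which is active in intestinal epithelium. Organoids carried 1 conditional floxV600E copy of Braf (BRAF), 1 conditional LSL-R172H copy of Trp53 (p53), or both (BRAFp53), each beside a wild-type copy. Recombination was induced for 24 hours with 4-hydroxytamoxifen, at 0.5 µM in SI and 3.5 µM in COL organoids (on), or ethanol was given as control (off), with 2 libraries per group. RNA was taken 8 days later in SI and 3 days later in COL organoids. The study's methods give 1 donor mouse per genotype and induction in duplicate, so genotype and culture cannot be told apart. For on versus off changes and differences between them, SEs and p-values thus measure only the spread between duplicate cultures, not that of animals. In the comparison of off organoids they measure the spread between the cultures of a tissue, which also differ in genotype. Doses, days and, per the study's methods, culture media differed between the tissues, so these cannot be told apart from tissue. The organoids were grown in Matrigel, itself an extract of basement membrane proteins.

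The basement membrane is the thin sheet of matrix on which an epithelium rests. Laminin heterotrimers and collagen IV each form a network, and nidogens and perlecan bind to these networks and link them. In the intestine collagen IV is made in large part by stromal cells, whereas laminin chains are also made by the epithelium. Laminin alpha 3 and beta 3 chains are part of laminin-332, the ligand of hemidesmosomes, and the alpha 5 chain joins beta 1 or 2 and gamma 1 in the laminins found beneath many epithelia. Collagen XVIII carries heparan sulfate and is the source of endostatin.

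Promoter stretches of 3 genes are shown because their genes had the largest positive responses (Nid1, Col18a1) and the opposite sign (Hspg2). The sequences are from RefSeq windows on GRCm38.p6, which held 7 of the 9 symbols (Nid2 and Lama3 were not matched), cut to the bases before the first annotated exon and written 5′ to 3′ on the strand of the gene. Capitals mark matches on either strand to AP-1 (TGANTCA), ETS (CCGGAAG), TEAD (GGAATG) or Sp1 (GGGCGG) letters, none of which overlap here. Nid1 lies at chr13:13437352-13437550 on the plus strand, Col18a1 at chr10:77166549-77166780 on the minus strand and Hspg2 at chr4:137468553-137468768 on the plus strand.
Nid1: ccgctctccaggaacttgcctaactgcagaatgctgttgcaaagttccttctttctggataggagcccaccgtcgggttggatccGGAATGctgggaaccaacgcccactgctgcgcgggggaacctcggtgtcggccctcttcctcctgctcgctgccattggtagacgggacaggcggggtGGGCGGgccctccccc
Col18a1: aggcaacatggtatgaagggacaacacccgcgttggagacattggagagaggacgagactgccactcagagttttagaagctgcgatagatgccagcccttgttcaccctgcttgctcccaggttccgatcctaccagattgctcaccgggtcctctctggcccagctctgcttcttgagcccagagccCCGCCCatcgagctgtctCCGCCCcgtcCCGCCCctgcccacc
Hspg2: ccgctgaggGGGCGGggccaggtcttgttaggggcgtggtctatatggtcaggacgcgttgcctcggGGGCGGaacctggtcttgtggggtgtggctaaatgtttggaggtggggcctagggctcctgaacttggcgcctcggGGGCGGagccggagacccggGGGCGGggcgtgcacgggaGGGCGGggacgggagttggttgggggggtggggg

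Sp1 letters were found in 6 of the 9 windows of the members (Lamb3 and Col18a1 had 2 windows each) and in 35.7% of all 32851 windows. The Col4a1 and Col4a2 windows overlap, and the only Col4a1 match is also a Col4a2 match, so that site is counted in both. The Hspg2 stretch held 5 such matches and the Col18a1 stretch 3. TEAD letters were found in the Nid1 window, in 1 of the Lamb3 windows and in 1 of the Col18a1 windows, beside 14.7% of all windows. No member window held AP-1 or ETS letters, which 7.81% and 8.86% of all windows held. These matches describe the letters of the windows and were not tested.

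Depth ran from 44.4 to 78.2 M counts in genes per library, where M is 1e6. The 7 epithelial markers were present in every library, with a summed level of 8009 to 31680 counts per 1e6 counts (CPM), and 13 stromal, endothelial and immune markers summed to 0.799 to 4.75 CPM, with 3 to 11 of the 13 at 0 counts. Of the 7 epithelial markers 5 passed the test with higher levels in induced COL BRAF, COL BRAFp53 and SI BRAF organoids and 4 in SI BRAFp53 organoids. Of the 13 other markers 7 were tested in COL and 2 in SI organoids, and none passed in any on versus off comparison. The part of cell composition in the results below was not tested. In bulk RNA fewer cells of a type and less RNA per cell cannot be told apart. A library and a culture stood apart in genes chosen after their values were seen. The library labelled SI BRAF on replicate 1 had 13.6 CPM of Xist, against 0.18 to 0.478 in the other 3 SI BRAF libraries and 106 to 152 in the SI p53 and BRAFp53 libraries, so SI BRAF fold changes are also given without it. Xist was at most 0.0435 CPM in every COL library. Ddx3y, on the Y chromosome, was at 47 to 76.4 CPM in COL, 28.6 to 38.1 CPM in SI BRAF and at most 0.0586 CPM in SI p53 and BRAFp53 libraries. The sex marked by these genes thus differed between the tissues for p53 and BRAFp53, which goes against 1 donor mouse for both tissues of these genotypes, and it cannot be told apart from tissue there. The COL BRAF culture had 32.9 to 57.2 CPM of Gata4, a transcription factor of the proximal intestine, against 0.321 to 3.14 in the other COL cultures.

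Lamb3 was the most abundant member in every library. Per kilobase of exon, the scale on which genes can be compared, it made up 47.7 to 68.6% of the summed level of the 9 genes. The rest of the sum differed between the tissues. In COL organoids Lama3 contributed 4.47 to 14.7%, while in SI organoids it gave at most 2.27%. Nid1 ranged from 1.2 to 39.1% of the sum in SI libraries and from 2.9 to 11.4% in COL libraries. All 9 genes passed the filter on low counts in COL organoids and 7 passed in SI organoids, where Col4a1 had 0 to 17 and Col4a2 0 to 7 counts in a library. Lama3 reached the SI cutoff of 0.178 CPM in 2 of 6 off and in 6 of 12 libraries in all.

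Non-induced organoids of the tissues were compared over 3 cultures against 3, with the off libraries of a culture summed. This comparison, whose off libraries also serve the responses below, was fitted across all genes with edgeR. Of the 9 genes, 7 were higher in COL organoids at an adjusted p under 0.05, and 17% of the 17789 genes tested were higher in COL. Of these 7, Col4a1 and Col4a2 reached the SI cutoff in 0 of 6 SI off libraries and entered the test through COL libraries. Counted in both directions, 29.6% of genes were called, and 13.1 to 29% with 1 culture left out. The median log2 difference of the 9 genes was 3.27, against 0.0817 over all genes. Since the off libraries are part of the changes that chose the list, nothing is read from the members' count or median. The p-values of members below carry the same limit.

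All 3 laminin chains were called. Lama3 had 620 to 5176 counts in the 6 COL off libraries and 0 to 22 in the 6 SI off libraries, and the log2 difference was 7.60 ± 0.84 (SE, edgeR adjusted p = 0.00208). Lama5 was at 6.57 to 21.6 CPM in COL and 0.379 to 1.85 CPM in SI off libraries (log2 difference 3.27 ± 0.38, adjusted p = 0.00237). Lamb3 was at 79.2 to 211 CPM in COL and 18.5 to 44.1 CPM in SI off libraries (log2 difference 2.15 ± 0.41, adjusted p = 0.00957). For all 3 chains the lowest COL library lay above the highest SI library.

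The collagen IV chains Col4a1 and Col4a2 were at the edge of detection in SI organoids. Over the 6 SI off libraries Col4a1 had 5 counts and Col4a2 had 7 counts, each in a single library. Over the 6 COL off libraries Col4a1 had 1758 counts and Col4a2 1437 counts, or 1.01 to 8.68 and 1.4 to 6.99 CPM. Both differences were called by edgeR. As these genes passed the filter through COL libraries alone, no p-value is given and nothing is read from the calls. The fitted fold changes of these genes depend on the prior count and are not given. Col18a1 had 3.65 to 8.95 CPM in COL and 0.207 to 1.12 CPM in SI off libraries, a log2 difference of 3.57 ± 0.49 (edgeR adjusted p = 0.00357).

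The nidogens did not share a pattern. Nid1 was higher in COL by 2.34 ± 0.73 on the log2 scale (SE, edgeR adjusted p = 0.049), with 5.6 to 20.5 CPM in COL and 0.405 to 3.24 CPM in SI off libraries. This call was lost without any one of 5 cultures (COL p53, COL BRAFp53, SI BRAF, SI p53 or SI BRAFp53), at log2 differences of 1.60 to 2.66 and adjusted p of 0.0629 to 0.137. It was also lost with RLE size factors (adjusted p = 0.052) and with off replicate 2 alone (adjusted p = 0.0751), though the libraries of the tissues did not overlap. Nid2 was at 10.7 to 19.6 CPM in COL and 6.01 to 14.2 CPM in SI, with overlapping libraries and a log2 difference of 0.29 ± 0.32 (95% interval -0.35 to 0.92, edgeR adjusted p = 0.536).

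Hspg2 was the single member with a lower fitted level in COL off organoids. Its levels were split by culture, at 16.1 and 11.4 CPM in the COL BRAF, 3.57 and 3.29 in the COL BRAFp53 and 1.03 and 0.923 in the COL p53 off libraries, against 5.29 to 10.6 CPM in SI. The log2 difference was -0.59 ± 0.81 (edgeR adjusted p = 0.62). Without the COL BRAF culture, the one that carries Gata4, it was -2.08 ± 0.55 (adjusted p = 0.0362), whereas without COL p53 it was -0.10 ± 0.58 (adjusted p = 0.908) and without COL BRAFp53 -0.32 ± 0.95 (adjusted p = 0.837). The difference therefore rested on which COL cultures were counted. Without the COL BRAF culture 8 members were called, since the 7 calls above held.

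**Figure D1:**
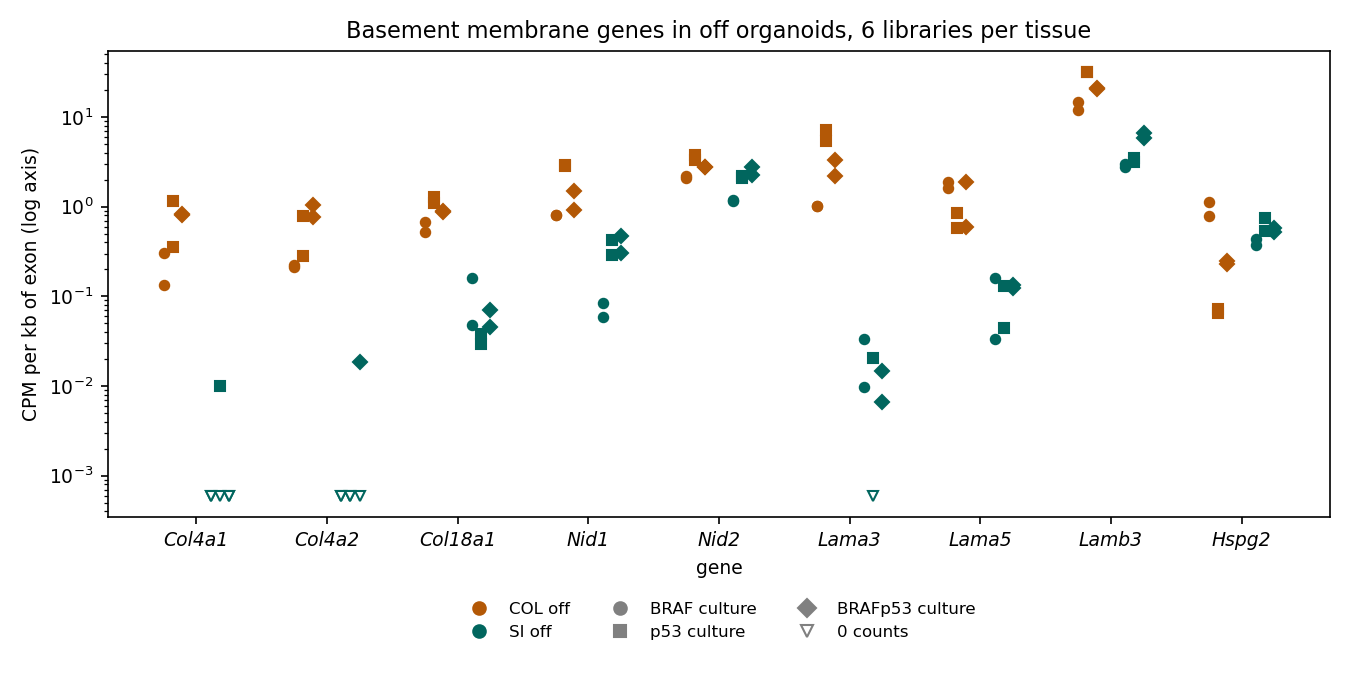
Levels of the 9 genes in off organoids, as CPM per kb of exon on a log axis, for the 6 COL and 6 SI off libraries, scaled within each tissue. Marker shapes give the culture and open triangles stand for 0 counts. COL points lie above SI points for Col4a1, Col4a2, Col18a1, Nid1, Lama3, Lama5 and Lamb3 and overlap with them for Nid2 and Hspg2.

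Induction of BRAFV600E, alone or with p53R172H, went with large shifts of some members, and p53R172H alone with small ones. In COL BRAF organoids 5 of 9 genes passed the call of an edgeR adjusted p under 0.05, all with higher levels, where 19.9% of all genes tested were called (10.3% higher and 9.61% lower). In COL BRAFp53 organoids 4 were higher and 1 lower, beside 17.7% of all genes (9.95% higher and 7.76% lower). In SI BRAF organoids 3 of 7 tested members were higher and 1 lower, beside 31.7% of all genes (17.5% higher and 14.2% lower). In SI BRAFp53 organoids 4 of 7 were higher, beside 11.5% of all genes (6.98% higher and 4.53% lower). Without any one of the 4 SI BRAFp53 libraries 2 remained called, since Col18a1 and Lama5 were lost. Without a library of COL BRAFp53 3 to 5 were called, as Lama3 or Lamb3 or both were lost without on replicate 1 or either off replicate. With p53R172H alone no member passed, where 0.142% of genes passed in COL (0.0316% higher) and 0% in SI organoids. Without adjustment 873 of the 16856 SI genes had a p under 0.05, and DESeq2 called 65. Leaving out any one library of a contrast lowered the share of all genes called, to 9.59 to 12.1% in COL BRAF, 8.26 to 11.7% in COL BRAFp53, 19.8 to 29.7% in SI BRAF and 4.95 to 7.38% in SI BRAFp53. Since these contrasts may have chosen the members, nothing is read from their counts.

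**Figure D2:**
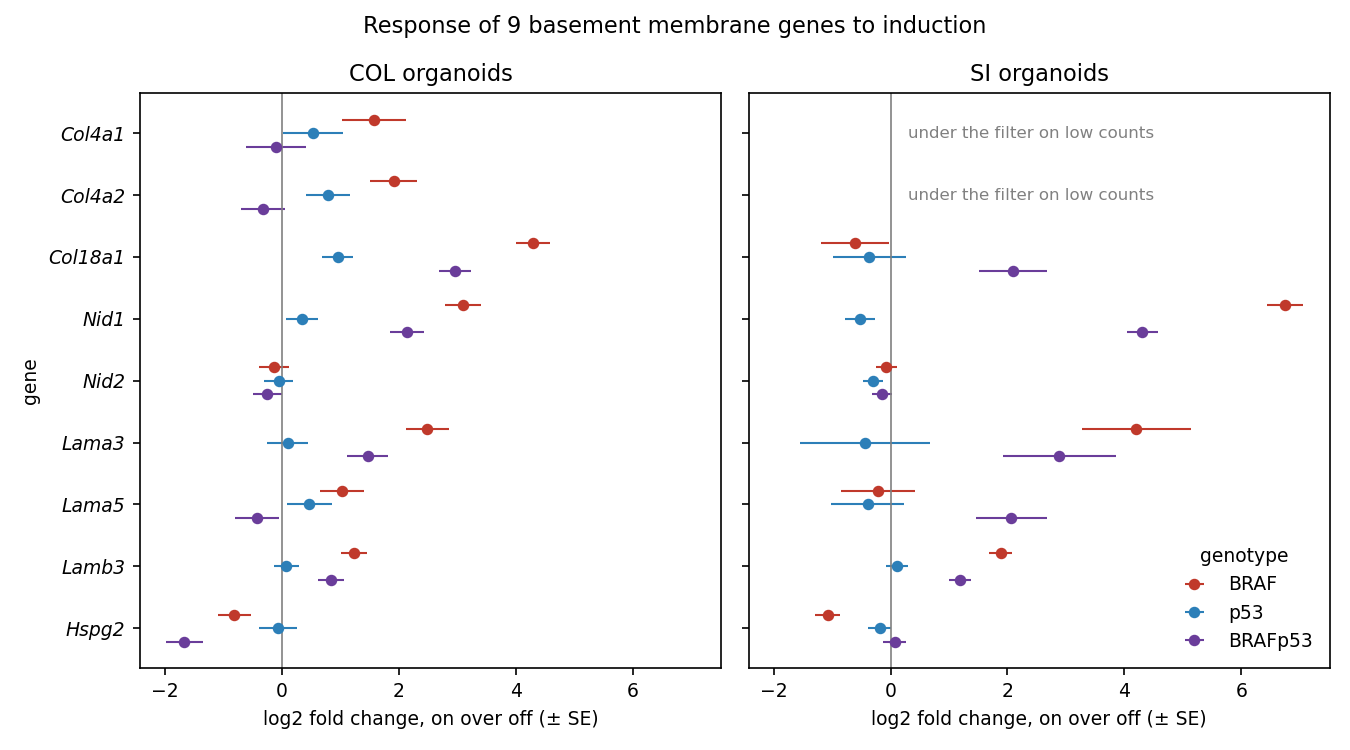
Log2 fold changes of on over off organoids for the 9 genes by genotype (colour), as fitted by edgeR, with bars of 1 SE from fits that hold 2 libraries per group. Nid1 had the largest value in SI (6.74 in BRAF) and Col18a1 in COL organoids (4.30 in BRAF), Nid2 stayed between -0.30 and -0.05, and Hspg2 reached -1.67 in COL BRAFp53 organoids.

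Nid1, the nidogen that most basement membranes contain, had the largest fitted on over off fold change of the 7 genes tested in SI organoids. The SI BRAF off libraries had 28 and 25 counts (0.59 and 0.405 CPM) and the on libraries 2310 and 2286 counts (46.3 and 59 CPM), a log2 fold change of 6.74 ± 0.31 (SE), or 6.93 ± 0.32 without on replicate 1. In SI BRAFp53 organoids Nid1 went from 2.12 and 3.24 CPM off to 45.2 and 61 CPM on (4.31 ± 0.26). Both induced groups reached about the same level, and the smaller response of the BRAFp53 culture stands beside a higher off level.

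In COL organoids the Nid1 range was narrower. The COL BRAF libraries had 5.6 and 5.67 CPM off and 48.1 and 48.3 CPM on (log2 fold change 3.10 ± 0.30). COL BRAFp53 libraries had 6.36 and 10.3 CPM off and 44.3 and 29 CPM on (2.13 ± 0.29). The COL p53 culture was already at 20.5 and 19.7 CPM off and at 32.6 and 18.6 CPM on, with overlapping libraries. Its off level lay above those of the other COL off cultures and of every SI off library.

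Nid2, the second nidogen, was flat. Over the 6 contrasts its log2 fold change ran from -0.30 to -0.05, with 95% intervals that reached from -0.74 to 0.44. In SI BRAF organoids it was at 6.18 and 6.01 CPM off and 5.07 and 6.56 CPM on (log2 fold change -0.07 ± 0.18, and 0.13 ± 0.20 without on replicate 1). The per-kilobase ratio of Nid1 to Nid2 therefore went from 0.0712 and 0.0502 to 6.8 and 6.71 in SI BRAF, and from 0.369 and 0.395 to 4.49 and 2.97 in COL BRAF libraries. In SI p53 organoids the ratio was 0.13 to 0.205 in off and 0.13 to 0.156 in on libraries. Nid2 shares 437 bases of exon with Rtraf on the opposite strand, and the use of strand in counting is not stated.

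Col18a1, collagen XVIII, had its largest responses in COL organoids. In COL BRAF organoids it was at 3.65 and 4.7 CPM off and 87 and 77.4 CPM on (log2 fold change 4.30 ± 0.29), and in COL BRAFp53 organoids at 6.28 and 6.12 CPM off and 51.4 and 45.2 CPM on (2.96 ± 0.27). The COL p53 libraries had 7.69 and 8.95 CPM off and 21.6 and 10.7 CPM on (0.95 ± 0.26). The order of the 6 COL groups was BRAF on, BRAFp53 on, p53 on, p53 off, BRAFp53 off and BRAF off, and no neighbouring groups in that order had overlapping libraries.

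In SI organoids Col18a1 was low throughout, at 11 to 115 counts per library. SI BRAF libraries had 1.12 and 0.34 CPM off and 0.481 and 0.465 CPM on, so the groups overlapped (log2 fold change -0.61 ± 0.58, and -0.62 ± 0.75 without on replicate 1). Leaving out off replicate 1 gave 0.47 and leaving out off replicate 2 gave -1.24, so its sign rested on 1 library. SI BRAFp53 libraries had 0.319 and 0.498 CPM off and 1.76 and 1.75 CPM on (2.10 ± 0.58). The highest SI library, at 1.76 CPM, stayed under the lowest COL library, at 3.65 CPM, on scales set within each tissue.

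**Figure D3:**
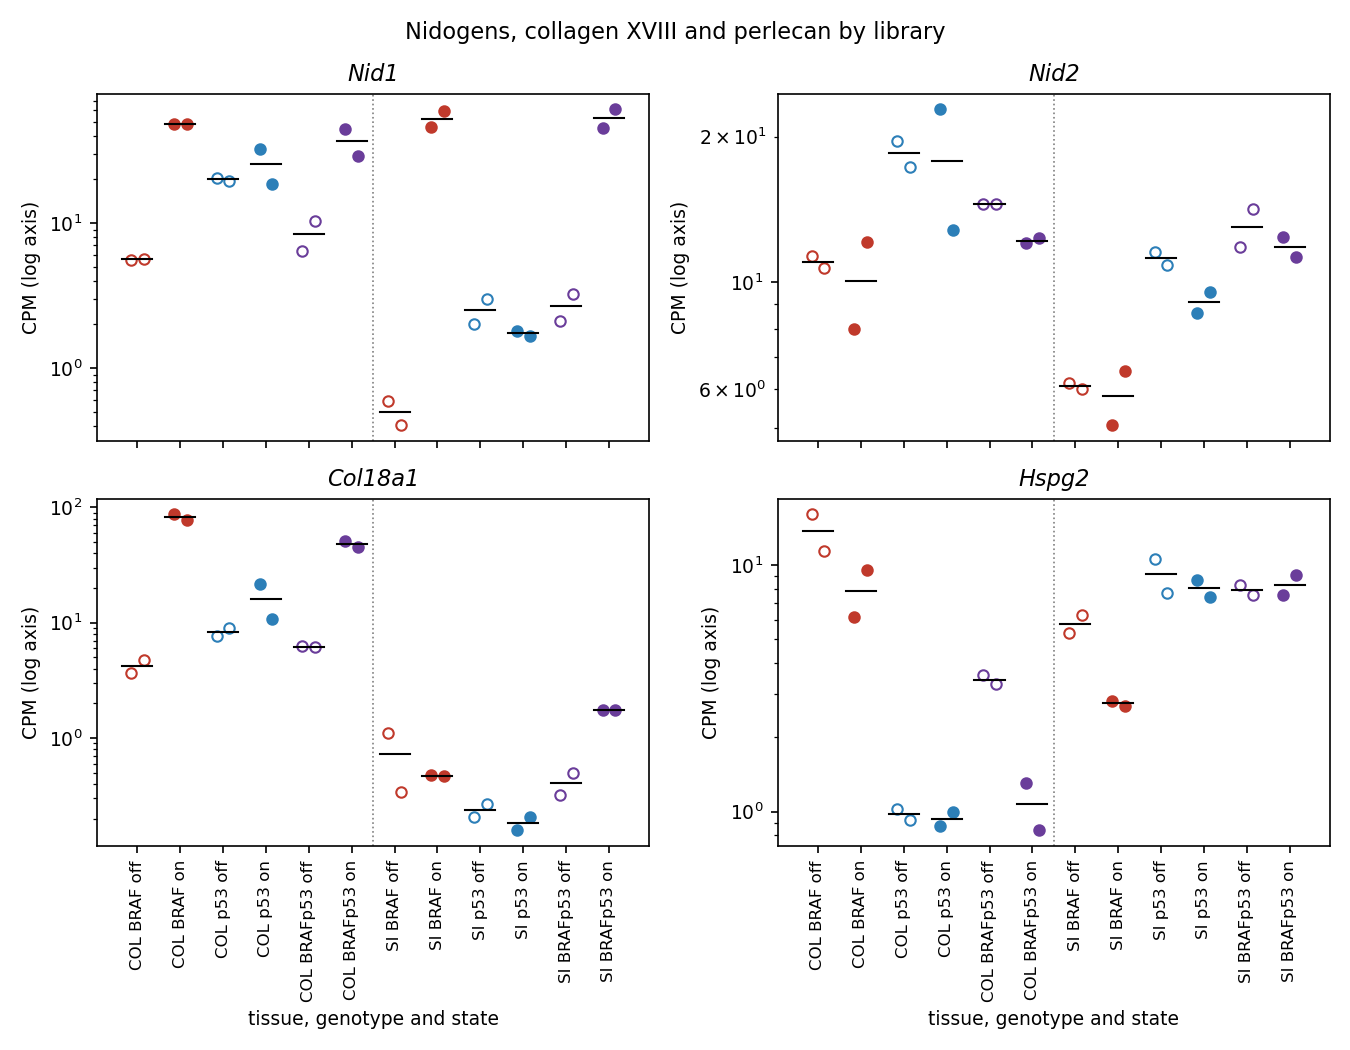
CPM of Nid1, Nid2, Col18a1 and Hspg2 in each of the 24 libraries on a log axis, with open symbols for off, filled symbols for on, and a line at the mean of the 2 libraries. Induced BRAF and BRAFp53 libraries lie above their off libraries for Nid1 in both tissues, whereas Nid2 libraries stay between 5.07 and 22.8 CPM.

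Lama3 and Lamb3 encode the alpha and beta chains of laminin-332. Lama3 was at 10.9 and 10.8 CPM in COL BRAF off and 78.8 and 43 CPM in on libraries (log2 fold change 2.49 ± 0.37), and at 35.3 and 23.9 CPM off and 92 and 71.3 CPM on in COL BRAFp53 (1.47 ± 0.36). The COL p53 off libraries, at 58.8 and 77.1 CPM, reached the level of the induced COL BRAF libraries without induction. In SI BRAF organoids it went from 5 and 22 counts off to 156 and 219 counts on (4.20 ± 0.93), and in SI BRAFp53 from 9 and 4 counts to 52 in both on libraries (2.89 ± 0.97). Without SI BRAF on replicate 1 the SI BRAF value was 4.59 ± 1.05.

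Lamb3 moved less on the log2 scale from a higher level. COL BRAF libraries had 97.6 and 79.2 CPM off and 212 and 203 CPM on (log2 fold change 1.23 ± 0.22), and COL BRAFp53 libraries 140 and 137 CPM off and 282 and 215 CPM on (0.84 ± 0.22). SI BRAF libraries had 18.5 and 19.7 CPM off and 57.7 and 83.2 CPM on (1.88 ± 0.19, and 2.15 ± 0.19 without on replicate 1), and SI BRAFp53 libraries 44.1 and 38.9 CPM off and 86.9 and 102 CPM on (1.19 ± 0.19). In all 4 the on libraries lay above the off libraries. The chains were far from equal in RNA, since Lama3 stood at 0.0686 to 0.229 of the per-kilobase level of Lamb3 in COL libraries and at 0 to 0.0418 in SI libraries.

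Lama5, the alpha chain of another laminin group, followed another pattern. It was at 21.6 and 18.3 CPM in COL BRAF off and 38.8 and 42.8 CPM in on libraries (log2 fold change 1.03 ± 0.38). In COL BRAFp53 the off libraries differed from each other, with 437 and 1416 counts, and on libraries had 10.8 and 10.4 CPM (-0.42 ± 0.38). It became -1.03 when off replicate 1 was left out and 0.65 when off replicate 2 was, so its sign rested on 1 library. In SI BRAF organoids the groups overlapped (-0.21 ± 0.63, and -0.52 ± 0.79 without on replicate 1), and leaving out off replicate 1 or 2 gave -0.92 or 1.35, so its sign rested on 1 library here too. In SI BRAFp53 Lama5 was at 1.54 and 1.42 CPM off and 4.89 and 7.52 CPM on (2.07 ± 0.61).

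**Figure D4:**
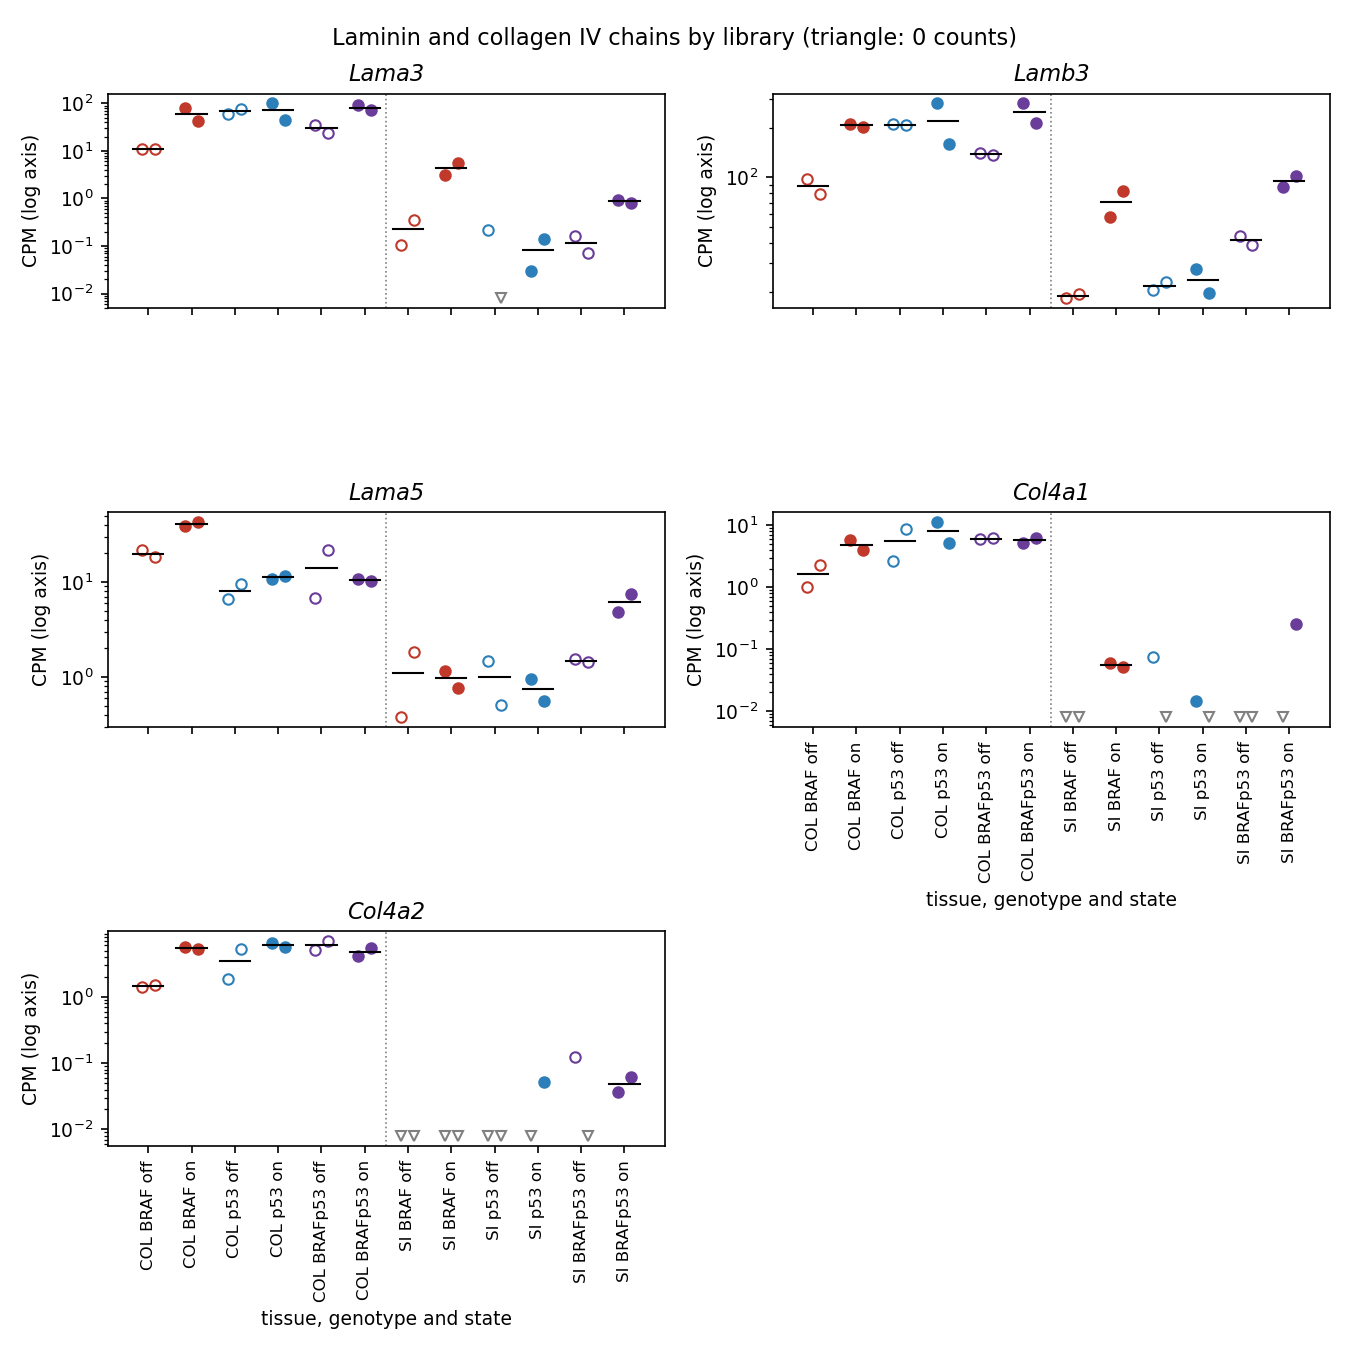
CPM of laminin chains Lama3, Lamb3 and Lama5 and of collagen IV chains Col4a1 and Col4a2 by library on a log axis, with open symbols for off, filled symbols for on, a line at the mean where no library is at 0, and triangles for 0 counts. Lama3 and both collagen IV chains separate COL from SI libraries, and Lamb3 is higher in the induced BRAF and BRAFp53 than in the matching off libraries.

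The collagen IV chains Col4a1 and Col4a2, which assemble into the most widespread collagen IV trimer, both had on libraries above their off libraries in COL BRAF organoids. Col4a2 was at 1.4 and 1.49 CPM off and 5.59 and 5.28 CPM on (log2 fold change 1.91 ± 0.40), and Col4a1 at 1.01 and 2.27 CPM off and 5.74 and 4.04 CPM on (1.58 ± 0.55). Over the left-out libraries the Col4a1 value ran from 1.11 to 2.27. In COL BRAFp53 organoids both had overlapping libraries, with Col4a1 at 6.02 and 6.27 CPM off and 5.27 and 6.19 CPM on. The COL BRAF off libraries were the lowest of the COL groups for both chains, and induced COL BRAF libraries were within the range of the other COL cultures. The genes start head to head on chromosome 8 and their first exons share 22 bases on opposite strands.

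Hspg2, perlecan, had lower levels in the on libraries of 3 of the 4 contrasts with BRAFV600E. COL BRAFp53 libraries had 3.57 and 3.29 CPM off and 1.31 and 0.843 CPM on (log2 fold change -1.67 ± 0.31), and COL BRAF libraries 16.1 and 11.4 CPM off and 6.14 and 9.53 CPM on (-0.81 ± 0.29). The COL BRAF value was -0.54 without off replicate 1 or on replicate 1 and -1.17 without on replicate 2. SI BRAF libraries had 5.29 and 6.25 CPM off and 2.8 and 2.68 CPM on (-1.07 ± 0.21, and -1.09 ± 0.28 without on replicate 1). In SI BRAFp53 organoids the libraries overlapped at 7.53 to 9.09 CPM (0.07 ± 0.20). All induced libraries of the first 3 contrasts lay below their off libraries.

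The responses with and without mutant p53 were set side by side. In COL organoids the log2 fold change in BRAFp53 was below that in BRAF for all 9 genes, though off levels also differed between the cultures. For Hspg2 and Nid2 this meant a larger decrease. The differences ran from -2.24 to -0.11, with a median difference of -1.02 against -0.0277 over all genes. The smallest, that of Nid2, was -0.11 ± 0.36, and 0.24 without COL BRAF on replicate 2. The COL difference of Lamb3 was -0.39 ± 0.30. None of these differences was called, beside 0.907% of all genes. Since the responses that make up these differences may have chosen the members, nothing is read from these counts, the shared sign or the median. In SI organoids the BRAFp53 response of Nid1 was lower by 2.44 ± 0.39 on the log2 scale and that of Hspg2 higher by 1.14 ± 0.29. Over the left-out libraries these ran from -2.71 to -2.11 and from 0.99 to 1.26. The difference of Col18a1 was 2.71 ± 0.82, and was 1.63 without SI BRAF off replicate 1 and 3.34 without off replicate 2. That of Lama5 was 2.28 ± 0.87, and was 2.99 and 0.71 without the same libraries. The size of both therefore rested on single libraries. That of Lamb3 was -0.70 ± 0.26, and was -0.94 without SI BRAF on replicate 1 and -0.39 without on replicate 2. Among all genes 8.2% were called in this SI comparison (1.93% higher and 6.28% lower). As each genotype is 1 culture, mutant p53 and culture cannot be told apart.

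Between tissues the BRAF responses of Nid1 and Col18a1 differed with opposite signs. The COL response less the SI response was -3.69 ± 0.46 for Nid1 and 4.83 ± 0.56 for Col18a1 on the log2 scale. Without SI BRAF on replicate 1 these were -3.87 ± 0.49 and 4.84 ± 0.68. The Col18a1 difference was 3.77 without SI BRAF off replicate 1 and 5.51 without off replicate 2. Among all genes 10.7% were called, 3.31% higher and 7.4% lower. The difference of Lama3 was -1.70 ± 0.79 and that of Lama5 1.22 ± 0.78. Without SI BRAF off replicate 2 these were -2.88 and -0.36, and without off replicate 1 -1.17 and 1.89. The sign of the Lama5 difference thus rested on 1 library. Those of Col4a1 and Col4a2, which did not pass the SI filter, are not given. The differences of Lamb3 (-0.70 ± 0.31), Hspg2 (0.22 ± 0.35) and Nid2 (-0.11 ± 0.32) were smaller. Over the left-out libraries Lamb3 ran from -0.95 to -0.39, Hspg2 from -0.11 to 0.50 and Nid2 from -0.42 to 0.16, so the sign of the last 2 rested on single libraries. In BRAFp53 organoids the COL response less the SI response was -2.21 ± 0.40 for Nid1 and -1.77 ± 0.36 for Hspg2 (3.52% of all genes called), and ran from -2.53 to -1.82 and from -2.11 to -1.505 over the left-out libraries. It was -2.52 ± 0.73 for Lama5, with -3.05 without COL BRAFp53 off replicate 1 and -1.46 without off replicate 2. It was 0.82 ± 0.53 for Col18a1, with 0.48 without SI BRAFp53 off replicate 2 and 1.10 without off replicate 1. With p53 alone no member was called, where 0.117% of all genes were and 0.0102% were higher.

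With p53R172H alone the largest COL value was that of Col18a1 given above, and the others ran from -0.07 for Hspg2 to 0.79 ± 0.38 for Col4a2. This order rested on single libraries. Without off replicate 2 Col4a2 was at 1.69 and Col4a1 at 1.62, above Col18a1 at 1.06, and without off replicate 1 Col4a2 was at 0.23. COL p53 on replicates differed for several members, with 1460 and 754 counts of Col18a1, 6806 and 3200 of Lama3 and 769 and 363 of Col4a1. Without on replicate 2 the Col18a1 value was 1.36, and without on replicate 1 it was 0.36. In SI p53 organoids Nid1 was at 2.01 and 2.98 CPM off and 1.81 and 1.67 CPM on (log2 fold change -0.52 ± 0.26, and -0.21 without off replicate 2 to -0.78 without off replicate 1), and Lamb3 was at 20.8 and 23.2 CPM off and 27.8 and 19.7 CPM on (0.11 ± 0.19). The sign of the Lamb3 value rested on 1 library, with -0.15 without on replicate 1 and 0.34 without on replicate 2.

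Across the 12 COL libraries, which share genotypes and induction, the closest pair on log2 CPM was Lama3 with Lamb3 (Pearson r = 0.966), followed by Col18a1 with Nid1 (0.913) and Col4a1 with Col4a2 (0.89). In the 12 SI libraries it was Nid1 with Lamb3 (0.926). Hspg2 ran against Lama3 in both tissues (-0.755 in COL and -0.694 in SI). Of 9055 COL genes with a sufficient level, those closest to the mean profile of the 9 members were Dennd1c (0.953), Cxcl16 (0.948), Kalrn (0.946), Asap1 (0.946) and Mapk11 (0.944). Of 8501 SI genes they were Slc20a1 (0.963), Elovl6 (0.954), Akp3 (0.951), Nt5c2 (0.945) and Akr1b8 (0.944), against the profile of the 7 tested members. Not every member followed these profiles. The r to the COL profile was -0.415 for Hspg2, 0.117 for Nid2 and 0.196 for Lama5, and 0.757 to 0.906 for the other members. To the SI profile it was 0.131 for Hspg2 and 0.448 to 0.882 for the others.

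Other laminin and collagen IV chains were read from a list of 26 basement membrane components, of which 19 were tested in COL and 15 in SI organoids. In COL BRAF 4 of them rose and 4 fell, in COL BRAFp53 2 rose and 4 fell, in SI BRAF 4 rose and 2 fell and in SI BRAFp53 3 rose and 2 fell, beside called shares over all genes of 19.9%, 17.7%, 31.7% and 11.5%. None passed in either p53 comparison. The list's median log2 fold changes were 0.63, 0.00, 0.56 and 0.31 in that order, and -0.0113, -0.0442, -0.0584 and -0.0273 over all genes. This list and those below were drawn up with earlier results of these data known. Apart from laminin and collagen IV chains, genes were named from them by how often they were called.

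The chains that pair with Lama5 did not move as a set. Lamb2 fell in COL BRAF (-0.96 ± 0.30, edgeR adjusted p = 0.0386) and in COL BRAFp53 (-1.17 ± 0.29, adjusted p = 0.0174), Lamc1 rose in COL BRAFp53 (0.82 ± 0.19, adjusted p = 0.0116), and Lamb1 passed in no on versus off comparison. Both Lamb2 calls were lost without any one of 3 of their 4 libraries, with a COL BRAF value of -0.40 without off replicate 1, and the Lamc1 call without on replicate 1 or off replicate 2 (0.62 and 0.72). All 3 were higher in COL than in SI off organoids, Lamb1 by 3.58 ± 0.53, Lamb2 by 4.04 ± 0.48 and Lamc1 by 1.002 ± 0.14. The remaining laminin chains Lama1, Lama2, Lama4 and Lamc3 had at most 21 counts in a library. Of the other collagen IV chains, Col4a3 and Col4a4 were at most at 1.71 and 1.23 CPM, Col4a5 at 1.54 CPM and Col4a6 at 9 counts, and none was called in an on versus off comparison.

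Other named components moved in both directions. Tinagl1, a matrix protein related to cathepsins, rose in COL BRAF (2.002 ± 0.34), SI BRAF (1.28 ± 0.16) and SI BRAFp53 organoids (1.56 ± 0.16). Smoc2, a calcium-binding matrix protein also used as a marker of intestinal stem cells, fell in COL BRAF (-1.55 ± 0.25), COL BRAFp53 (-2.19 ± 0.26) and SI BRAF (-1.62 ± 0.21). Fras1, which anchors epithelia to the underlying matrix, fell in COL BRAF (-1.98 ± 0.27), COL BRAFp53 (-2.25 ± 0.28) and SI BRAFp53 (-2.88 ± 0.64). Fbln1, fibulin 1, fell in COL BRAF (-0.71 ± 0.13) and COL BRAFp53 (-0.74 ± 0.12) and rose in SI BRAF (0.77 ± 0.13). Without SI BRAF on replicate 1 the SI BRAF values were 1.47 for Tinagl1, -2.04 for Smoc2 and 0.89 for Fbln1, all still called. The SI BRAFp53 call of Fras1 was lost without either on library (-2.95 and -2.80). Among 18 components tested in off organoids 9 were higher and 2 lower in COL than in SI, beside 17% and 12.6% of all genes.

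The cell-surface receptors and linkers of the basement membrane were measured as a list of 15 genes, 15 tested in COL and 14 in SI organoids. In COL BRAF 10 rose and 3 fell, in COL BRAFp53 5 rose, in SI BRAF 7 rose and 2 fell, and in SI BRAFp53 6 rose and 1 fell, beside called shares over all genes of 19.9%, 17.7%, 31.7% and 11.5%. No gene of the list passed in the p53 comparisons. The list's median log2 fold changes were 0.72, 0.25, 0.43 and 0.46, and -0.0113, -0.0442, -0.0584 and -0.0273 over all genes. Itgb4, the integrin chain that binds laminin-332 in hemidesmosomes, went from 110 and 118 CPM to 389 and 403 CPM in COL BRAF organoids (1.79 ± 0.20, edgeR adjusted p = 0.000146) and rose in the other BRAF-bearing groups by 1.33 ± 0.20, 1.33 ± 0.15 and 0.75 ± 0.15. Plec, plectin, which ties Itgb4 to keratin filaments, rose by 1.84 ± 0.18 in COL BRAF, 1.23 ± 0.18 in COL BRAFp53, 1.89 ± 0.18 in SI BRAF and 1.19 ± 0.17 in SI BRAFp53 organoids.

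Itga3 and Itga2, alpha chains of laminin and collagen receptors, rose in the same 4 comparisons. Itga3 rose by 0.69 ± 0.16 to 1.12 ± 0.16 and Itga2 by 0.63 ± 0.16 to 1.10 ± 0.17. Dst, dystonin, whose epithelial form is a hemidesmosome linker, rose in COL BRAF (1.58 ± 0.23), SI BRAF (1.17 ± 0.22) and SI BRAFp53 (0.73 ± 0.21) and had a value of 0.14 ± 0.22 in COL BRAFp53 organoids. Without SI BRAF on replicate 1 the SI BRAF values were 2.20 for Plec, 1.59 for Itgb4, 1.29 for Itga3, 0.81 for Itga2 and 1.54 for Dst, all still called. In SI BRAFp53 the calls of Itgb4 and Itga3 were lost without on replicate 2 or off replicate 2, that of Itga2 also without on replicate 1, and that of Dst without any one library. In COL BRAF the Itga2 call was lost without on replicate 1 or either off replicate.

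**Figure D5:**
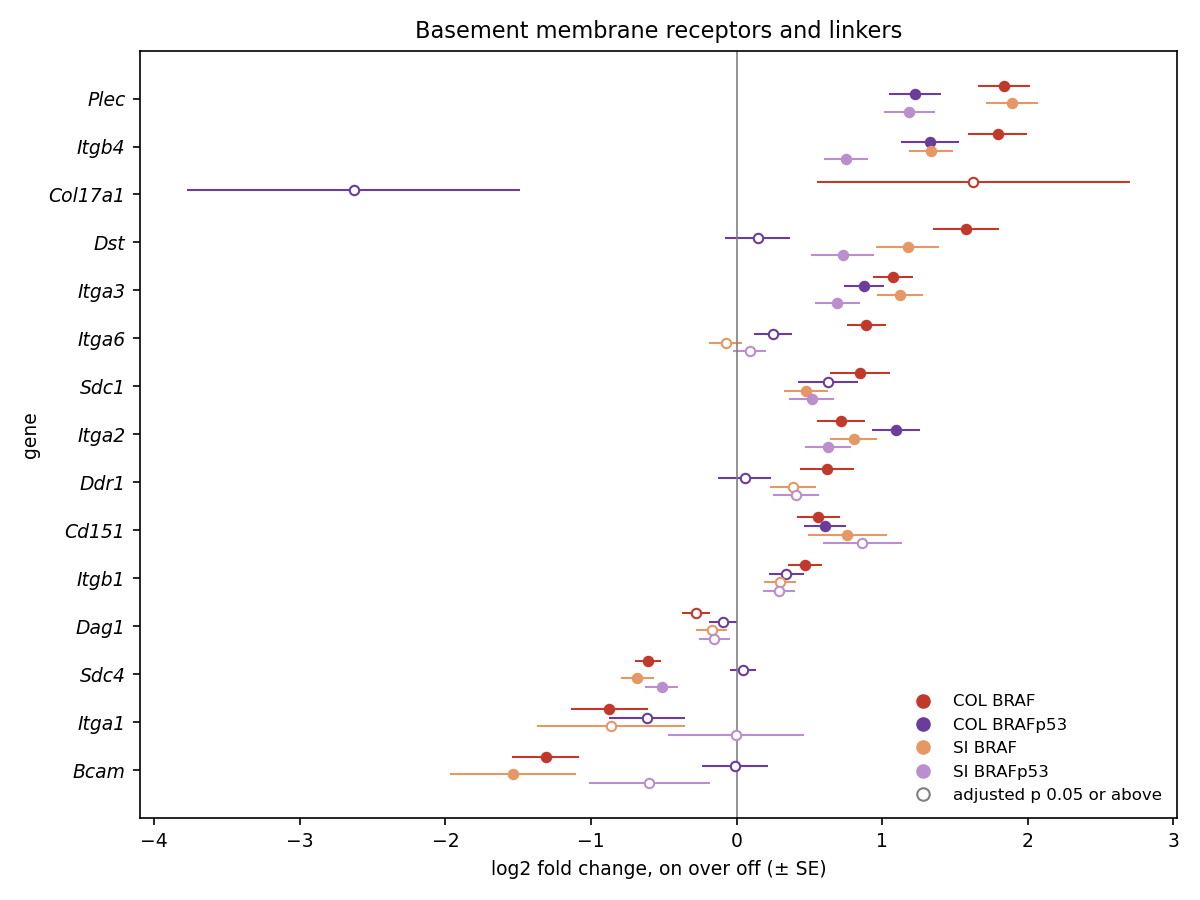
Log2 fold changes of on over off for the 15 receptors and linkers in the 4 BRAF-bearing comparisons, with bars of 1 SE and filled symbols for an edgeR adjusted p under 0.05. Plec, Itgb4, Itga3 and Itga2 are filled on the right in all 4 comparisons, and genes were named by how often they were called.

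Genes of collagen and laminin assembly formed a list of 22, 17 tested in COL and 14 in SI organoids. In COL BRAF 1 rose and 1 fell, in COL BRAFp53 3 rose, in SI BRAF 6 rose and 2 fell and in SI BRAFp53 1 rose, beside called shares over all genes of 19.9%, 17.7%, 31.7% and 11.5%, and none passed in the p53 comparisons. The list's median log2 fold changes were 0.03, 0.24, 0.49 and 0.19. P4hb, the beta subunit of prolyl 4-hydroxylase and protein disulfide isomerase, rose in SI BRAF from 2086 and 1839 to 4957 and 6024 CPM (1.48 ± 0.13, edgeR adjusted p = 3.48e-06). It also rose by 0.61 ± 0.13 in SI BRAFp53 and fell in COL BRAF organoids (-0.33 ± 0.10, adjusted p = 0.0405). Plod3 and Plod1 hydroxylate collagen lysines, and Plod3 rose by 0.48 ± 0.12 in COL BRAFp53 while P4ha2, an alpha subunit of prolyl 4-hydroxylase, rose by 0.63 ± 0.17 in SI BRAF. Plod1 rose in SI BRAF by 2.06 ± 0.47, and Mia3, which exports large collagens from the endoplasmic reticulum, rose by 0.60 ± 0.12 in SI BRAF and 0.44 ± 0.10 in COL BRAFp53. Crtap, which acts in prolyl 3-hydroxylation, fell in SI BRAF (-0.86 ± 0.27), a call lost without on replicate 1 (-0.59) or either off replicate. Without that on library P4hb was at 1.64, Plod1 at 2.26, Mia3 at 0.72 and P4ha2 at 0.63, all still called. The COL BRAF call of P4hb and the COL BRAFp53 call of Plod3 were lost without any one library, that of P4hb in SI BRAFp53 without on or off replicate 2, that of P4ha2 in SI BRAF without either off replicate and that of Mia3 in COL BRAFp53 without off replicate 1. In these SI organoids Col4a1 and Col4a2 themselves had at most 17 counts in a library.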

How the data were processed

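RNA of 24 organoid libraries was sequenced as described. Per the labels and the study's methods, the authors trimmed reads (Trimmomatic 0.36), aligned them to mouse mm10 with STAR 2.5.2b and deposited raw counts per gene. Annotation release and strand use are not given in the sources used here. Of 45706 identifiers, 45143 matched GENCODE M21 (GRCm38), as did all 92 list symbols. Counts were TMM-scaled and filtered (filterByExpr), and the 12 libraries of a tissue were fitted with group means in edgeR 4.0.16 (quasi-likelihood, R 4.3.3), with Benjamini-Hochberg adjustment over all genes and a call at 0.05. A joint fit of 24 libraries gave tissue differences of responses. CPM is scaled to 1e6. Members and gene lists were chosen with earlier results of these data known. Other genes named are the laminin and collagen IV chains (1 item is not reported here) and, per list and tissue, up to 4 genes called most often. Replicate numbers did not pair the libraries (correlations of deviations -0.0392 to 0.0573). The procedure was tested on simulated data. Alternatives were DESeq2 1.42.0, limma-voom (limma 3.58.1), RLE size factors, other filters (none, or at least 10 counts in every library), each arm alone, blocks and leaving out libraries.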

Additional observations from a re-analysis of the deposited data

Results flagged for a closer look

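The genes below were singled out because a response differed between genotypes or tissues. Values are differences of log2 responses with the edgeR adjusted p.

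Fras1 had a COL less SI BRAF response of -4.01 (adjusted p = 0.0115) and an SI BRAFp53 less BRAF response of -4.88 (adjusted p = 0.0148). Without SI BRAF on replicate 1, the library with Xist, these were -0.58 (adjusted p = 0.945) and -1.45 (adjusted p = 0.627). Without SI BRAF off replicate 2 they were -3.01 (adjusted p = 0.0733) and -3.89 (adjusted p = 0.0683). Fras1 was at 2.08 CPM in that library, at 0.1 CPM in the other SI BRAF on library and at 10.1 to 18 CPM in the off libraries of the SI p53 and BRAFp53 cultures.

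Fbln1 had a COL less SI BRAF response of -1.53 (adjusted p = 2.15e-05) and an SI BRAFp53 less BRAF response of -1.17 (adjusted p = 0.0023). P4hb had -1.85 (adjusted p = 5.33e-06) and -0.87 (adjusted p = 0.0115) in the same comparisons, and the second was lost without SI BRAF off replicate 2 (-0.78, adjusted p = 0.0578) or SI BRAFp53 off replicate 1 (-0.72, adjusted p = 0.0587). Plod1 had a COL less SI BRAF response of -2.78 (adjusted p = 0.00378) and Mia3 one of -0.51 (adjusted p = 0.0344), which was lost without any one of 7 of the 8 libraries (-0.38 to -0.56, adjusted p of 0.0553 to 0.174). Smoc2 had a COL less SI BRAFp53 response of -1.98 (adjusted p = 0.0048) and an SI BRAFp53 less BRAF response of 1.38 (adjusted p = 0.0111), the latter with an adjusted p of 0.0508 without SI BRAFp53 off replicate 1.

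Nid1 libraries of SI BRAF and SI p53 organoids moved to opposite sides, as did those of SI p53 and SI BRAFp53. Both SI BRAF on libraries lay above their off libraries (log2 fold change 6.74), and both SI p53 on libraries lay below theirs (-0.52, and -0.78 to -0.21 with 1 library left out). The differences between these genotypes were not tested.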

How the results depend on the processing

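Under the alternatives no called value changed sign. The members called in COL BRAF were 5 and became 8 under DESeq2, beside 19.9% and 24.5% of all genes. Since these contrasts may have chosen the members, nothing is read from the counts of members here. In COL p53 0 became 1 without the filter on low counts and under DESeq2 (Col18a1 in both), beside 1.87% and 1.71% of all genes. Leaving out 1 library gave 3 to 5 called members in COL BRAFp53, 0 to 1 in COL p53, and 2 each time in SI BRAFp53, where Col18a1 and Lama5 were lost. Genes of the 3 other lists called for the COL difference of BRAFp53 and BRAF responses were 1, and 8 without the filter, 2 with at least 10 counts in every library, 6 under DESeq2, 0 with the replicate block and 0 to 2 without a library. The same SI difference held 4, and 7 without the filter or under DESeq2, and 2 to 6 without a library. Without the filter 1 gene was called in COL p53, 2 in the tissue difference of p53 and 5 in that of BRAFp53 responses. Without 1 library the tissue difference of BRAFp53 responses held 2 to 4 (3 with all). Leaving out 1 library left 9 to 11 of 14 (9 without on replicate 1) in COL BRAFp53, 15 (without off replicate 2) to 23 of 23 in SI BRAF, 5 (without on replicate 2) to 11 of 13 in SI BRAFp53 and 4 to 6 of 8 in the tissue difference of BRAF responses. Leaving out 1 culture left 15 (without SI p53) to 26 of 27 between off organoids. A left-out library leaves 1 in its group, which is then assumed to vary like the others. The replicate block gave 3 members in SI BRAFp53 (4 without it), beside 9.83% and 11.5% of all genes. Col4a1 and Col4a2 did not pass the filter in SI organoids, so their responses there were not detectable at this depth. Counts over all genes moved by over 1.5 times for the COL difference of BRAFp53 and BRAF responses (172, and 1364 under DESeq2, 1312 without the filter, 391 with at least 10 counts and 17 with the block) and the tissue difference of BRAFp53 responses (693, and 1580 under DESeq2, 1548 without the filter). For SI BRAFp53 less BRAF they were 1383, 2108 under DESeq2 and 2044 without the filter, for COL p53 27, 324 and 569, for SI p53 0, 65 and 155, for the tissue difference of p53 responses 23, 162 and 488, and between off organoids 5270, and 3475 with genotype as a block. With 1 library left out the counts over all genes ran from 1961 to 2489 in COL BRAF (3776 with all), 1699 (without on replicate 1) to 2399 in COL BRAFp53 (3360), 887 to 1333 in SI BRAFp53 (1941), 0 to 56 in COL p53, 0 (without COL BRAF off replicate 1) to 279 for the COL difference, 597 to 2128 for the SI difference, and 235 to 723, 1202 to 1833 and 3 to 46 for the tissue differences of BRAFp53, BRAF and p53 responses. Between off organoids they ran from 2479 (without SI p53) to 5381 with 1 culture left out.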
